A study of Homo sapiens with 6 samples.

Results

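The genes described here are 10 negative and positive feedback targets of Wnt/beta-catenin signalling: AXIN2, NKD1, NKD2, RNF43, ZNRF3, LGR4, LGR5, LEF1, SP5 and DKK1. They were taken by name from a list of known targets, and all 10 were found among the 60676 gene IDs of the count tables. The choice was made with earlier results of these data known. RNA sequencing was done on HEK293A, a flat-growing subline of the human embryonic kidney cell line HEK293. One group received 20 nM of VT01454 (a code name) for 2 h (3 libraries). The other received the DMSO vehicle for 2 h (3 libraries). The series title places the compound in work on phosphoinositide transfer proteins and the Hippo pathway, and the comparison of compound with vehicle asks which transcripts differ after this short exposure. Neither group was given a Wnt ligand according to the labels, so the feedback genes were read at the level that the culture itself sustains. Whether the 3 libraries of a group stem from separate cultures is not stated in the labels. The p-values therefore cover the spread among these libraries alone, which may be technical.

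When a Wnt ligand binds Frizzled and LRP5/6 receptors, the destruction complex built on axin and APC stops marking beta-catenin for degradation, and beta-catenin enters the nucleus and activates genes through TCF/LEF factors. Part of what it activates acts back on the pathway. AXIN2 rebuilds the destruction complex, NKD1 and NKD2 bind Dishevelled and dampen the signal, RNF43 and ZNRF3 are transmembrane E3 ligases that remove Frizzled from the cell surface, and DKK1 is a secreted antagonist of LRP5/6. LGR4 and LGR5 are receptors for R-spondins, which hold RNF43 and ZNRF3 in check, and LEF1 and SP5 are transcription factors of the nuclear output.

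TCF/LEF factors recognise DNA that carries the letters CTTTGA, and promoter sequence is shown for 3 of the genes to let this be seen. The RefSeq promoter table (GRCh38.p14) matched 6 of the 10 genes, and the 250 bases before each listed start were searched for CTTTGA on both strands, read as CTTTGA or TCAAAG in the gene's orientation. The window of SP5 held 3 matches and that of DKK1 held 2, while those of LEF1, NKD2, LGR4 and RNF43 (2 windows) held none. Both LEF1 and RNF43 lie on the minus strand. The LEF1 window (108166302 to 108166551) lies inside the GENCODE gene, which begins at 108168956, so the bases before that start were not searched. One RNF43 window (58402722 to 58402971) also lies inside its gene, which begins at 58417595. Of 35116 promoter windows searched in the same way, 11.2% held at least 1 match, 0.977% at least 2 and 0.0655% at least 3. Capitals mark the matches, which are a description of these letters and not of binding. SP5 lies at chr2:170715087-170715336 (plus strand) and DKK1 at chr10:52314031-52314280 (plus strand). LGR4, the most abundant of the 10 genes, lies at chr11:27472791-27473040 (minus strand) and is shown as a window without a match.
SP5: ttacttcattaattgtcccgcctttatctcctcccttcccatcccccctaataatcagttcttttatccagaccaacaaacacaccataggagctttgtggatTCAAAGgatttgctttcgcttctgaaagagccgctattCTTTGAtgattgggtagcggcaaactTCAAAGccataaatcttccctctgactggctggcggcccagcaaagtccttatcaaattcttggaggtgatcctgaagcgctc
DKK1: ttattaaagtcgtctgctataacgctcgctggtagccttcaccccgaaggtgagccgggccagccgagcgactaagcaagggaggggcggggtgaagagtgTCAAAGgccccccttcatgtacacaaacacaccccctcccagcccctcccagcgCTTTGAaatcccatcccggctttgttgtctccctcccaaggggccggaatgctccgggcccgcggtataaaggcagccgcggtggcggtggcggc
LGR4: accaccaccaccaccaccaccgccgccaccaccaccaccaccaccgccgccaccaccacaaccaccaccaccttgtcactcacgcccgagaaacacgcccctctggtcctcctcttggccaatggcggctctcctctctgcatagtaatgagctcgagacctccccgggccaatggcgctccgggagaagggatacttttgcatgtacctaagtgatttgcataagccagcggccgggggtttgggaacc
In SP5 the matches began 147, 109 and 83 bases before the start, and in DKK1 they began 149 and 95 bases before it.

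The libraries held 19126039 to 28880374 counts, so that 3 counts, the most that a count of 0 allows, were worth 0.104 to 0.157 CPM of the unscaled library size (counting error only). All other CPM values are counts over library sizes scaled by TMM. Of the HEK293 and kidney-lineage markers 8 of 10 passed the filter on low counts. The list summed to 2237 to 2316 CPM in compound libraries and 2170.3 to 2488 CPM in vehicle libraries. KRT8, NEFL, VIM and KRT18 made up most of this (922, 682, 285 and 266 CPM on average with compound). LHX1 (0 to 1 counts with compound, 0 to 3 with vehicle) and PAX8 (6 to 17 counts with compound, 2 to 15 with vehicle) were too low. PAX2 passed the filter but was also low, with 6 to 14 counts with compound and 7 to 15 with vehicle. Of 6 leukocyte markers 3 were at 0 in every library, and the list summed to at most 1.12 CPM. Fibroblast and endothelial markers summed to 24.1 to 34.8 CPM with compound and 26.8 to 39.9 CPM with vehicle, and squamous epithelial markers to 3.33 to 4.10 CPM with compound and 2.58 to 10.4 CPM with vehicle. None of the tested markers passed the test between groups. Vehicle library 2 stood apart by gene length: its 3869 longest tested genes had a median log2 deviation of −0.13 from the mean of all libraries and its 3869 shortest one of 0.14, where the other 5 libraries lay between −0.049 and 0.056. Compound library 1 and vehicle library 3 shared another feature, near-absent counts of the neurofilament gene NEFM (4 and 10 counts, against 87 to 126 in the other libraries), and this split crossed the treatment groups. The chi-square per degree of freedom over tested genes measured how far the counts of paired libraries differed. It was 2.02 to 2.77 within the compound group, 7.77 to 19.6 within the vehicle group and 7.54 to 17.7 between groups. Vehicle libraries thus differed among themselves about as much as from compound libraries.

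All 10 feedback genes were detected in every library and all 10 passed the filter on low counts, but they covered a wide range of levels. Scaled to exonic length and to a common library total (TPM), LGR4 was highest at 93.5 TPM on average over the 6 libraries (range 79.1 to 102) and stood above 84.8% of all tested genes. SP5 was lowest at 1.47 TPM (range 1.26 to 1.68), a level 63.6-fold below LGR4. LEF1 followed LGR4 at 31.7 TPM and ZNRF3 at 28.4 TPM, and the library ranges of these 2 genes overlapped. LGR5 at 13.0 TPM and AXIN2 at 7.35 TPM each stood apart from their neighbours in the order. RNF43 at 5.40 TPM, NKD2 at 3.22 TPM, DKK1 at 2.51 TPM, NKD1 at 1.69 TPM and SP5 each overlapped with the next in the order. Genes further apart were partly separated: every library of RNF43 lay above every library of DKK1, NKD1 and SP5, and every library of NKD2 above every library of SP5. The range of NKD2, up to 7.09 TPM, also reached that of AXIN2. The 17425 exonic bases annotated for NKD1 are the most of the 10 genes, and its per-length level depends on how much of that length is transcribed here. By CPM, 9 of the 10 averaged at least 1 CPM and SP5 did not. In 7 genes every library held at least 50 counts, while SP5 had 15 to 22 counts with compound and 13 to 17 with vehicle, DKK1 21 to 39 with compound and 29 to 38 with vehicle, and NKD2 29 to 56 with compound and 34 to 126 with vehicle.

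**Figure D1:**
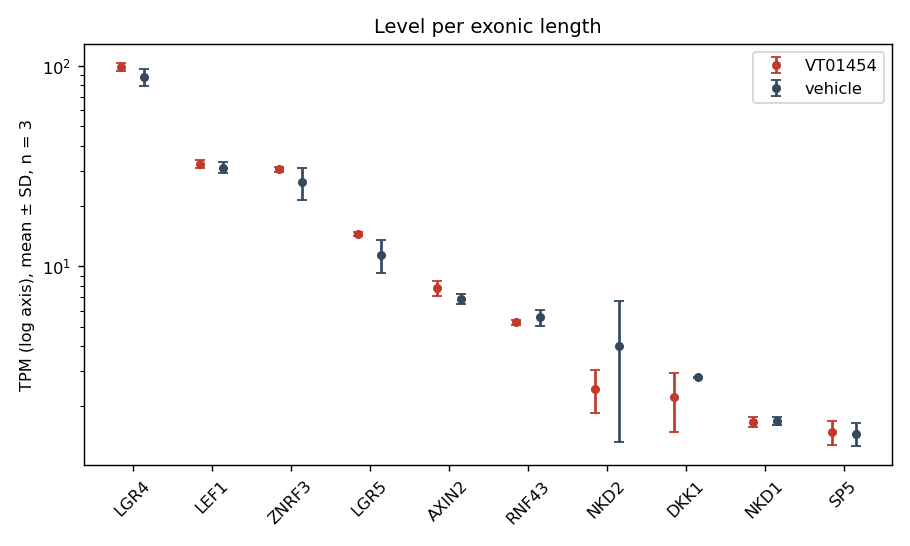
Level per exonic length (TPM, log axis) of the 10 feedback genes, ordered from high to low, with points for the mean and bars for the SD of 3 VT01454 libraries (left of each pair) and 3 vehicle libraries (right). LGR4 at 93.5 TPM over all libraries stands above the rest, and NKD2 has the widest bar in the vehicle group.

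Overlapping gene models limit the levels of AXIN2 and RNF43. In GENCODE release 29, 59.5% of the exonic bases of RNF43 also belong to same-strand genes, chiefly the long model ENSG00000285897, and 25.2% of those of AXIN2 belong to ENSG00000266076. ENSG00000285897 had 0 to 1 counts and ENSG00000266076 had 0 in every library. SUPT4H1, a transcription elongation factor gene that cells in general express and that ENSG00000285897 also spans, was listed at 0 in all 6 libraries. How reads in shared exons were assigned is not given in the sources used here, so the counts of RNF43 and AXIN2 are uncertain as levels, and the part of these overlaps in the differences between groups was not tested. The other 8 genes shared no exonic bases with a same-strand gene. The strand setting is not given either, so opposite-strand genes may matter too. They shared 20.3% of the exonic bases of RNF43, 9.61% of DKK1, 5.20% of LEF1, 3.96% of LGR5 and 0.385% of NKD1. Those opposite-strand genes had at most 9 counts in a library.

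After 2 h with the compound none of the 10 feedback genes differed from vehicle past the test. The 10 log2 fold changes ran from −0.72 for NKD2 to 0.34 for LGR5, 6 above 0 and 4 below it, with a median of 0.048, against a median of −0.0073 over all 15577 tested genes. In bulk libraries such as these, fewer expressing cells and less RNA per cell cannot be told apart. The count was 0 of 10 by edgeR's quasi-likelihood test (Benjamini-Hochberg adjusted p below 0.05 over all tested genes), where 1.89% of all tested genes were called (294 of 15577). It was also 0 by DESeq2, which called 2.74% of tested genes and gave SP5 and DKK1 no adjusted p, and by limma-voom, which called 1.55%. It stayed at 0 with DESeq2's size factors (1.88% of genes called), library size alone (1.74%), a filter at a mean of 1 CPM (2.16%) and an offset for gene length (3.33%). Leaving out compound library 1, 2 or 3 also gave 0 of the 10, where 0.854%, 0.683% and 0.676% of genes were called, and so did leaving out vehicle library 1 (0.584%) or 2 (2.6%). At an unadjusted p below 0.05 edgeR had 3 of the 10 genes, LGR5, LGR4 and ZNRF3, all higher with compound, where 14.4% of tested genes reached that level in either direction and 7.82% as higher. In the same 3 genes every compound library lay above every vehicle library, as in 11.3% of tested genes, and groups did not overlap in either direction for 21.1%. The 95% interval of the fold change lay within 1.5-fold in both directions for 7 of the 10 genes, and within 2-fold for 9, NKD2 being the exception.

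**Figure D2:**
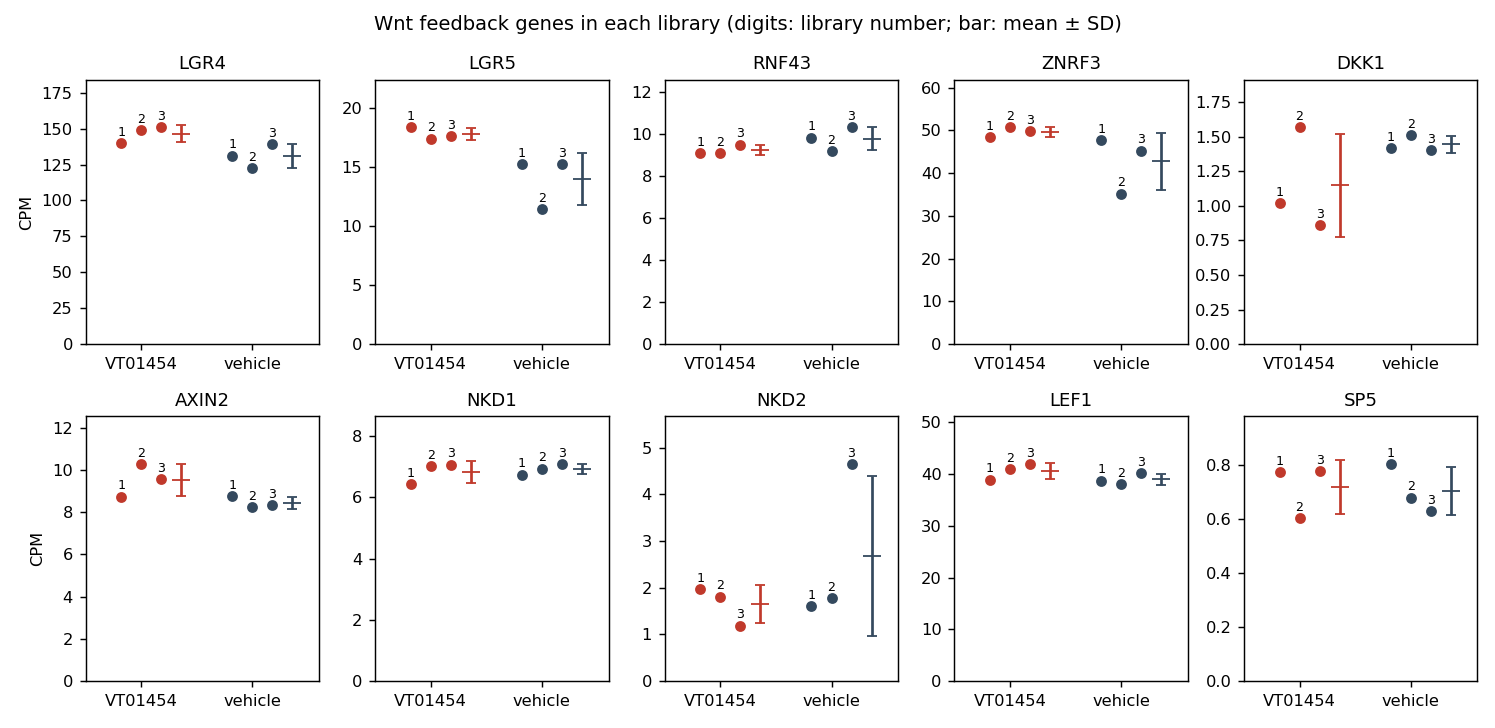
CPM in each library for the 10 feedback genes, with VT01454 libraries on the left of each panel and vehicle libraries on the right, digits for the library number, bars for the mean ± SD (n = 3) and vertical axes that start at 0. LGR4, LGR5 and ZNRF3 are the genes whose groups do not overlap, with vehicle library 2 lowest in each, and NKD2 stands high in vehicle library 3 alone.

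Among the R-spondin receptors, LGR5 (ENSG00000139292, chromosome 12, 71439770 to 71586310) had 18.4, 17.4 and 17.7 CPM in compound libraries 1 to 3, against 15.3, 11.4 and 15.2 CPM in vehicle libraries 1 to 3. The compound libraries lay close together, and vehicle library 2 lay well below the other vehicle libraries. LGR5 had a mean of 17.8 ± 0.500 CPM with compound and 14.0 ± 2.21 CPM with vehicle (SD, n = 3 each). The log2 fold change was 0.34 ± 0.11 (SE), with a 95% interval of 0.11 to 0.58, and did not pass (edgeR adjusted p = 0.164). LGR5 passed when low counts were not filtered (0.36, edgeR adjusted p = 0.0287, 2.29% of genes called) and without vehicle library 3 (0.41, adjusted p = 0.0354). Without vehicle library 3, 11.4% of all tested genes were called. Without vehicle library 2 the value was 0.23 (adjusted p = 0.230), and over all alternatives its adjusted p ran from 0.0287 to 0.445.

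LGR4 (ENSG00000205213, chromosome 11, 27365961 to 27472775) had 140.0, 149 and 151 CPM in compound libraries 1 to 3, against 131, 122 and 139 CPM in vehicle libraries 1 to 3. The lowest compound library and the highest vehicle library were nearly equal. Means were 147 ± 5.75 CPM with compound and 131 ± 8.30 CPM with vehicle (SD, n = 3 each). The log2 fold change was 0.16 ± 0.06 (SE, edgeR adjusted p = 0.266), and the interval of the fold change was 1.02 to 1.23. The gene passed without vehicle library 3 (0.21, edgeR adjusted p = 0.0281) and in no other alternative.

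Of the Frizzled ligases, ZNRF3 (ENSG00000183579, chromosome 22, 28883592 to 29057487) had 48.4, 50.7 and 49.9 CPM in compound libraries 1 to 3, against 47.8, 35.2 and 45.3 CPM in vehicle libraries 1 to 3. Vehicle library 2 was again the lowest. The log2 fold change was 0.21 ± 0.10 (SE, edgeR adjusted p = 0.338), and it was 0.096 without vehicle library 2. RNF43 (ENSG00000108375, chromosome 17, 58352500 to 58417595) had 9.09, 9.08 and 9.48 CPM with compound and 9.81, 9.18 and 10.3 CPM with vehicle. Its groups overlapped and its log2 fold change had the other sign, −0.086 ± 0.10 (edgeR adjusted p = 0.729, fold change interval 0.810 to 1.10). LGR5, LGR4 and ZNRF3 were all lowest in vehicle library 2, the library that stood apart by gene length. They have 5251, 6340 and 6968 exonic bases, where the 3869 longest tested genes have at least 7227. AXIN2 and LEF1, with 5226 and 5361 exonic bases, were also lowest in vehicle library 2, at 8.25 and 38.1 CPM. NKD1 and RNF43, with 17425 and 7505 exonic bases, were not, although RNF43 was lowest there among the vehicle libraries. The cause of the low values was not tested. With an offset for gene length, chosen after seeing the data, LGR5, LGR4 and ZNRF3 stood at 0.34, 0.14 and 0.18, and none passed (edgeR adjusted p = 0.0934, 0.178 and 0.262).

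AXIN2 (ENSG00000168646, chromosome 17, 65528563 to 65561647), the feedback gene most used as a readout of beta-catenin activity, had 8.74, 10.3 and 9.56 CPM in compound libraries 1 to 3, against 8.77, 8.25 and 8.34 CPM in vehicle libraries 1 to 3. Compound library 1 lay within the vehicle range and the other compound libraries above it. Means were 9.53 ± 0.773 CPM with compound and 8.45 ± 0.282 CPM with vehicle (SD, n = 3 each). The log2 fold change of 0.17 ± 0.11 (SE) did not pass (edgeR adjusted p = 0.492), and the interval of the fold change ran from 0.959 to 1.32. It lay between 0.12 and 0.23 in 14 alternatives, with adjusted p from 0.420 to 0.819.

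The Naked genes, whose products bind Dishevelled, gave very different precision. NKD1 (ENSG00000140807, chromosome 16, 50548330 to 50649249) had 6.42, 7.03 and 7.07 CPM in compound libraries 1 to 3, against 6.75, 6.94 and 7.09 CPM in vehicle libraries 1 to 3. The groups overlapped, compound library 1 lying below every vehicle library, and the log2 fold change was −0.019 ± 0.11 (SE, edgeR adjusted p = 0.953, fold change interval 0.832 to 1.17). NKD2 (ENSG00000145506, chromosome 5, 1008829 to 1038943) had 56, 45 and 29 counts in compound libraries 1 to 3, against 34, 34 and 126 counts in vehicle libraries 1 to 3. One library, vehicle 3, set its log2 fold change of −0.72 ± 0.40 (edgeR adjusted p = 0.449), which became −0.025 when that library was left out.

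DKK1 (ENSG00000107984, chromosome 10, 52314296 to 52318042), the secreted antagonist, had 1.02, 1.57 and 0.858 CPM in compound libraries 1 to 3, against 1.42, 1.51 and 1.40 CPM in vehicle libraries 1 to 3. The vehicle libraries lay close together and the compound libraries on both sides of them. The log2 fold change was −0.33 ± 0.27 (SE, edgeR adjusted p = 0.610), and with 21 to 39 counts in a compound library the fold change interval of 0.529 to 1.20 allowed a wide range. It was −0.61 without compound library 2 and −0.16 without compound library 3.

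Of the nuclear factors, LEF1 (ENSG00000138795, chromosome 4, 108047545 to 108168956) had 39.0, 41.0 and 41.9 CPM in compound libraries 1 to 3, against 38.7, 38.1 and 40.2 CPM in vehicle libraries 1 to 3. The groups overlapped, and the log2 fold change of 0.058 ± 0.07 (SE, edgeR adjusted p = 0.725) had a fold change interval of 0.942 to 1.15. SP5 (ENSG00000204335, chromosome 2, 170715351 to 170718078) had 0.772, 0.603 and 0.777 CPM with compound and 0.802, 0.678 and 0.627 CPM with vehicle. These values overlapped, with a log2 fold change of 0.038 ± 0.31 (SE, edgeR adjusted p = 0.966) and a fold change interval of 0.649 to 1.62.

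**Figure D3:**
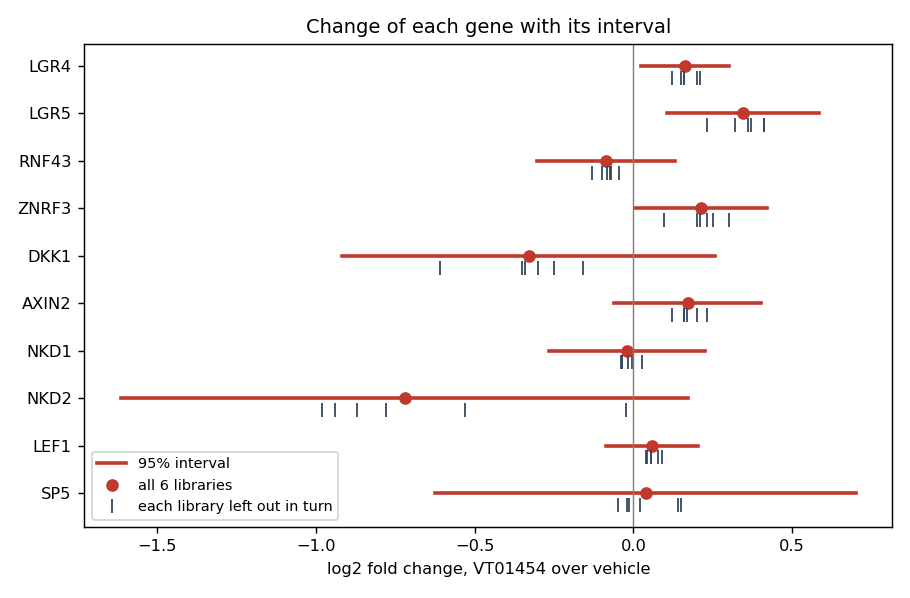
Log2 fold change of VT01454 over vehicle for the 10 feedback genes (point) with its 95% interval (line), and the values obtained when each of the 6 libraries is left out in turn (ticks). The intervals of LGR4, LGR5 and ZNRF3 lie above 0 before adjustment for the number of genes, and NKD2 moves from −0.72 to −0.025 when vehicle library 3 is left out.

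The genes whose pattern over the 6 libraries was most like that of AXIN2, by Pearson's r of log2(CPM + 0.1) among 13408 other tested genes with a mean of at least 1 CPM, were ENSG00000261409 (r = 0.983), the insulin receptor substrate gene IRS4 (r = 0.975) and the non-coding PSMG3-AS1 (r = 0.970). The 6 points share libraries and depth, and 12 genes had an r above 0.95. AXIN2 itself ranged only from 8.25 to 10.3 CPM. How many genes would reach such an r by chance, and whether these genes share control, was not tested. IRS4 had 2.77, 6.23 and 4.46 CPM in compound libraries 1 to 3, against 3.30, 1.72 and 2.25 CPM in vehicle libraries 1 to 3. None of these 3 genes passed between groups (edgeR adjusted p = 0.262, 0.222 and 0.375).

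Around the feedback genes, 111 other Wnt pathway genes were listed by role, of which 87 were tested (TCF7 stands in 2 of the lists). Of these, 6 rose with compound, none fell and 81 did not pass, where 1.27% of all tested genes were called higher and 0.616% lower. The lists were chosen with earlier results of these data known, so these counts only describe the listed genes. An excess over the share of all genes was not tested. The median log2 fold change of the 87 was 0.044. Without vehicle library 3, 16 of these genes were called (13 higher and 3 lower), where 11.4% of all genes were called. Without compound library 2 or 3, 4 of them were called, where 0.683% and 0.676% of all genes were. The 6 genes were the Groucho/TLE corepressor genes TLE4 and TLE3 and 4 reported beta-catenin targets, JUN, FOSL1, SOX4 and TBX3. JUN and FOSL1, which encode AP-1 subunits, are also immediate early or ERK-responsive genes.

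**Figure D4:**
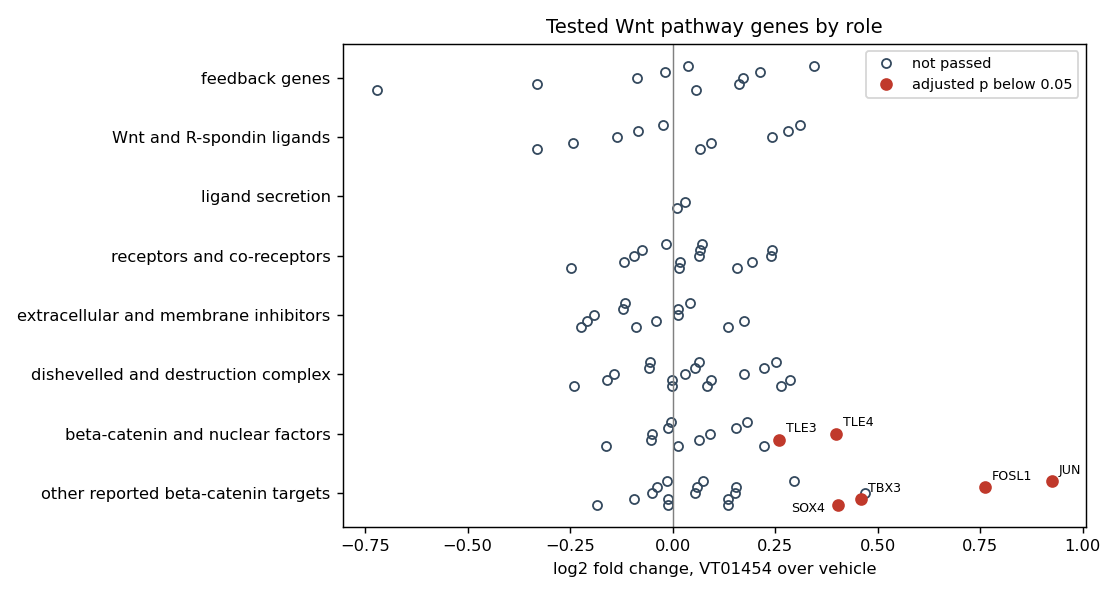
Log2 fold change of VT01454 over vehicle for each tested gene of the Wnt pathway by role, with filled points for genes at an edgeR adjusted p below 0.05 and open points for the rest. The 6 filled points are TLE3 and TLE4 among nuclear factors and SOX4, TBX3, FOSL1 and JUN among other reported targets, and the row of feedback genes has none.

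The Wnt and R-spondin ligand genes were mostly silent or low: of 23, 10 were tested and none passed, and 3 (WNT1, WNT7A and WNT9B) were at 0 in every library. WNT11, a ligand best known for non-canonical signalling, averaged 5.33 ± 0.259 CPM with compound and 4.30 ± 0.173 CPM with vehicle (SD, n = 3 each). Its log2 fold change of 0.31 ± 0.14 (SE) did not pass (edgeR adjusted p = 0.319). WNT5B, WNT9A and WNT16 stood at −0.14, 0.28 and −0.33 and none passed. WLS, which carries Wnt proteins to the cell surface, and PORCN, the acyltransferase that lipidates them, stood at 0.030 and 0.011.

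Among 14 tested receptor and co-receptor genes none passed. FZD5 had the smallest p at 0.24 ± 0.07 (SE, edgeR adjusted p = 0.131), with 49.1 ± 1.04 CPM with compound and 41.4 ± 3.15 CPM with vehicle (SD, n = 3 each). FZD2 stood at −0.25 ± 0.08 (adjusted p = 0.185), ROR1 at 0.24 ± 0.09 and the co-receptor gene LRP6 at 0.19 ± 0.08, so members lay on both sides of 0. Of 17 Dishevelled and destruction complex genes none passed. TNKS2, which encodes a tankyrase that marks axin for degradation, stood at 0.29 ± 0.07 (edgeR adjusted p = 0.0668), and CSNK1D, a casein kinase gene, at −0.24 ± 0.06 (adjusted p = 0.0805). Both passed in DESeq2, without a count filter and without vehicle library 3, and TNKS2 also with an offset for gene length and without vehicle library 2. GSK3B stood at 0.26 ± 0.10 and DVL2 at −0.14 ± 0.06. Vehicle library 2, which stood apart by gene length, was the lowest library for FZD5, ROR1, LRP6, TNKS2 and GSK3B. It was not the lowest for FZD2, CSNK1D or DVL2. The part of gene length in these values was not tested.

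Among beta-catenin and the nuclear factors, a list chosen with earlier results known, 2 of 13 rose and none fell. Over all tested genes 1.27% were called higher and 0.616% lower. TLE4 had 73.8, 74.0 and 72.8 CPM in compound libraries 1 to 3, against 56.3, 55.6 and 55.5 CPM in vehicle libraries 1 to 3. The groups were far apart and each was tight, with a log2 fold change of 0.40 ± 0.06 (SE, edgeR adjusted p = 0.00299), a call kept without any single library. TLE3 had 224, 223 and 218 CPM with compound and 195, 180.1 and 181 CPM with vehicle (0.26 ± 0.06, edgeR adjusted p = 0.0333). That call was lost with library size alone, with an offset for gene length, and when vehicle library 1 or one of the compound libraries was dropped (edgeR adjusted p from 0.0587 to 0.210), with log2 fold changes of 0.18 with the length offset, 0.24 with library size alone and 0.25 to 0.30 with a library dropped. TCF7L2 and PYGO2 stood at 0.22 and −0.16 and did not pass. CTNNB1, the beta-catenin gene, named outside the rule and after its values were seen, averaged 559 ± 3.72 CPM with compound and 534 ± 13.2 CPM with vehicle (SD, n = 3 each; 0.064 ± 0.05, adjusted p = 0.592).

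Among 20 tested genes reported elsewhere as beta-catenin targets, 4 rose, none fell and 16 did not pass. Over all tested genes 1.27% were called higher and 0.616% lower. This list too was chosen with earlier results known, so its count describes only the listed genes. JUN averaged 762 ± 13.7 CPM with compound and 401 ± 23.1 CPM with vehicle (SD, n = 3 each; log2 fold change 0.92 ± 0.06 SE, edgeR adjusted p = 1.71e-06). FOSL1 stood at 0.76 ± 0.07 and SOX4 at 0.40 ± 0.06 (adjusted p = 6.02e-05 and 0.00222). TBX3, a T-box repressor gene, had 32.6, 34.4 and 32.9 CPM in compound libraries 1 to 3, against 25.9, 22.6 and 24.2 CPM in vehicle libraries 1 to 3 (0.46 ± 0.08, edgeR adjusted p = 0.00689). The TBX3 call was lost without compound library 2 or 3 (edgeR adjusted p = 0.0728 and 0.0521), with log2 fold changes of 0.44 and 0.47 there.

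Of 12 tested extracellular and membrane inhibitor genes none passed, and 2 of them followed the split of libraries that crosses the groups. These 2, and NEFM, were singled out after their values were seen. WIF1, which encodes a secreted Wnt-binding inhibitor, had 0, 49 and 37 counts in compound libraries 1 to 3, against 38, 45 and 0 counts in vehicle libraries 1 to 3. DKK2, a paralogue of DKK1, had 5, 51 and 12 counts in compound libraries 1 to 3, against 32, 27 and 3 counts in vehicle libraries 1 to 3. Compound library 1 and vehicle library 3, the libraries low in NEFM, were therefore the lowest in both genes. Their log2 fold changes, −0.21 ± 1.55 for WIF1 and −0.12 ± 1.16 for DKK2 (edgeR adjusted p = 0.964 and 0.973), carried errors too large to place a difference. Among the feedback genes, NKD2 was highest in these same 2 libraries, with 1.97 CPM in compound library 1 and 4.65 CPM in vehicle library 3, though compound library 2 was close at 1.81 CPM. KREMEN2, APCDD1, DKK3 and TRABD2B, the inhibitor genes of smallest p, stood at −0.22, 0.17, −0.19 and 0.13.

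**Figure D5:**
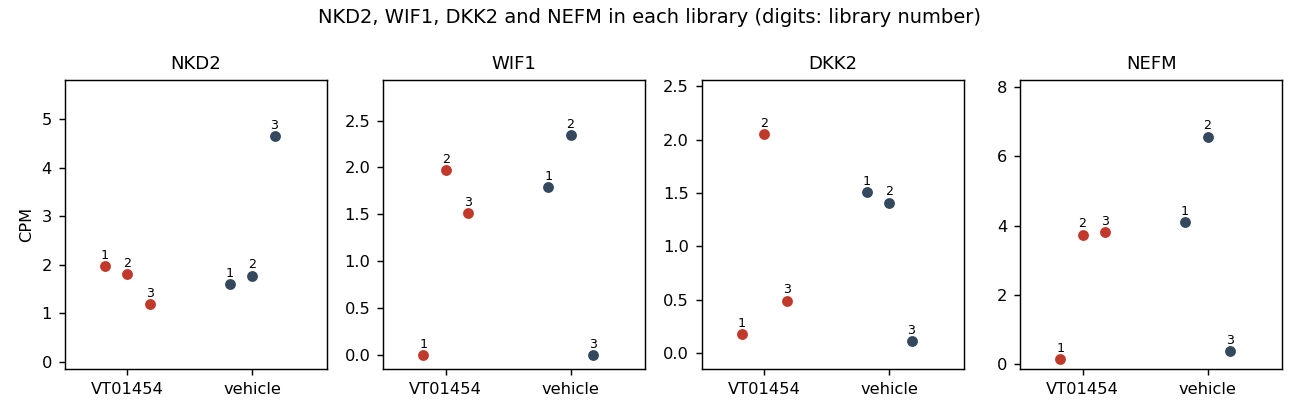
CPM of NKD2, WIF1, DKK2 and NEFM in each library, VT01454 on the left and vehicle on the right of each panel, with digits for the library number. Compound library 1 and vehicle library 3 are lowest for WIF1, DKK2 and NEFM and highest for NKD2.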

How the data were processed

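Per the submitters' processing notes, reads were handled with HISAT2 2.2.1 and HTSeq 0.9.1 on genome build hg38. No annotation release, strand setting or handling of ambiguous reads was given in the sources. The authors deposited raw read counts per Ensembl gene, with no normalization, in 1 table per library. Symbols were matched to 60357 of 60676 IDs, and GENCODE release 29 (same build) gave 1-based coordinates and union exonic lengths for 58503.

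The fit used edgeR 4.0.16 in R 4.3.3: filterByExpr, TMM, and the robust quasi-likelihood F-test, two-sided, compound against vehicle, Benjamini-Hochberg adjusted over 15577 genes, called at an adjusted p below 0.05. An SE is the absolute log2 fold change over the square root of its F statistic, and 95% intervals use the t quantile of the fit. CPM uses TMM-scaled library sizes. TPM uses union exonic lengths. DESeq2 1.42.0 and limma 3.58.1 were alternatives. The fit was tested on simulated data. Alternatives were other scalings, count filters, a replicate block, each library left out and, chosen after seeing the data, an offset for gene length.

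The genes and lists were chosen with earlier results of these data known. Named are all 10 feedback genes, and of each pathway list the called genes plus those of smallest p up to 4, and the 3 genes most like AXIN2.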

Additional observations from a re-analysis of the deposited data

How the results depend on the processing

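The number of called feedback genes was 0 in 13 of 15 alternatives, 1 (LGR5) without a count filter, and 0 to 2 when each library was left out, the 2 being LGR4 and LGR5 without vehicle library 3. Called genes of the other pathway lists numbered 6, against 10 without a count filter and 4 to 16 with a library left out. Over all genes 294 were called, against 713 without a count filter, 518 with the length offset (chosen after seeing the data), 125 at an adjusted p below 0.01, and 93 to 1806 with a library left out. Each library but vehicle 2 moved that count by over 1.5 times: 136, 109 and 108 without compound library 1, 2 or 3, 93 without vehicle library 1 and 1806 without vehicle library 3. Leaving out a library gave NKD1 −0.040 to 0.027 and SP5 −0.049 to 0.15, so both changed sign, and the cause was not tested. The other 8 feedback genes kept their sign in every alternative. SP5 did not reach a mean of 1 CPM and has no value under that filter.

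With a replicate block, calls numbered 339 among all genes, 0 feedback genes and 7 other pathway genes, TNKS2 being added. Deviations of same-numbered libraries correlated at −0.070, 0.028 and −0.014 over 15577 genes, so the numbers were not taken to pair the libraries. SP5 and DKK1 had the lowest depth of the feedback genes, at 13 to 39 counts a library. The SE of NKD2 was 0.40, and 0.28 without vehicle library 3, which held 126 of its counts.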
